A study of Homo sapiens with 12 samples.

Results

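A set of 9 genes of the transforming growth factor beta (TGF-β) pathway was followed in HCT116 cells with and without PPM1G. The members are the ligand gene TGFB1, the receptor genes TGFBR1 and TGFBR2, the signal transducers SMAD2 and SMAD3, the repressors SKI and SKIL, and the response genes PMEPA1 and TGFBI. They were chosen by symbol, and all 9 were found once among the 56104 gene IDs of each count table and passed the filter on low counts in both assays. HCT116 is a colorectal carcinoma cell line, used here at passages under 15. PPM1G encodes a nuclear serine/threonine phosphatase. Each of 4 groups held 3 libraries: 4sU-seq of control cells (4sU_Ctrl) and of PPM1G knockout cells (4sU_KO), and RNA-seq of the same genotypes (RNA_Ctrl, RNA_KO), 12 libraries in all. In 4sU-seq, cells took up 4-thiouridine at 500 µM for 10 min, and the labelled, newly made (nascent) RNA was pulled down. RNA-seq measured steady-state RNA. All cells grew with serum in their medium, no TGF-β treatment is named in the labels, and ERCC spike-in RNA was added to all libraries. The labels do not say whether the knockout is 1 clone, which site was edited or what the control cells carry. Beyond what is given above, they do not say how the RNA-seq cultures were kept. In both assays the p-values thus measure the spread between these samples, which may all come from 1 line per genotype. For RNA-seq that spread may be technical.

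TGF-β is secreted as a latent complex. Once freed, it binds the type II receptor (TGFBR2), which recruits and phosphorylates the type I receptor (TGFBR1). The type I receptor then phosphorylates SMAD2 and SMAD3, which join SMAD4 and act on genes in the nucleus. SKI and SKIL (also called SnoN) bind these SMAD complexes and hold their targets down, and SKIL is itself a target. PMEPA1 is a membrane protein that is induced by TGF-β and keeps SMAD2 and SMAD3 from the receptor, and TGFBI is a secreted matrix protein named for its induction by TGF-β. In colon epithelium the pathway restrains growth.

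HCT116 is deficient in DNA mismatch repair and is known for a frameshift in a run of A in the coding sequence of TGFBR2. The reference sequence of that run is shown because it bears on how the receptor values can be read. It lies at chr3:30650355-30650414 (hg38, plus strand) in exon 3 of the transcript TGFBR2-201 of GENCODE 29, with the run of 10 A in capitals.
TGFBR2: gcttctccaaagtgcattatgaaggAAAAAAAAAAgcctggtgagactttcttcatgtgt
The run spans coding bases 374 to 383 of that transcript. Gene counts do not show the allele, so a TGFBR2 count is a measure of RNA and not of working receptor. Signalling through the receptor was not measured either. The terms response gene and target therefore name known roles, not a TGF-β response shown in these cells.

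The stretch before the first annotated start is shown for PMEPA1 and TGFBI, the response genes, and for SKIL, the one that rose. The sequences come from RefSeq on GRCh38.p14, where 8 of the 9 members had a promoter window, and run 5′ to 3′ on the strand of the gene. Capitals mark a match to CAGAC or its reverse complement GTCTG, the short element that SMAD proteins can bind.
SKIL, chr3:170357465-170357677, plus strand: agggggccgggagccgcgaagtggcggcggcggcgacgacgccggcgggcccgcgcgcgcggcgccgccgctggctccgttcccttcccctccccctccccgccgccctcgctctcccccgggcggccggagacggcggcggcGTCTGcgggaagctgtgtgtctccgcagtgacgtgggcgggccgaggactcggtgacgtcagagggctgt
PMEPA1, chr20:57711537-57711722, minus strand: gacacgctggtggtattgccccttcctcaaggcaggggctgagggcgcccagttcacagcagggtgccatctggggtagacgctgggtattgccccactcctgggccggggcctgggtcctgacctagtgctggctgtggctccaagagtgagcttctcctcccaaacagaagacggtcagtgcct
TGFBI, chr5:136028738-136028894, plus strand: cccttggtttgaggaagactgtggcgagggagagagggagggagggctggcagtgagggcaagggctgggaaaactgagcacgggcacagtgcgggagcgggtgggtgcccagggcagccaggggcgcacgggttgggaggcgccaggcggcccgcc
The SKIL stretch holds 1 match and the other stretches hold 0. RefSeq gives PMEPA1 4 windows of 250 bases, for starts along the gene, and 2 of these, not printed here, hold 1 match each. The printed stretches are shorter, at 213, 186 and 157 bases, so the shares below, over windows of 250 bases, are not for stretches of their length. Over 35116 RefSeq windows of 250 bases before a gene start, 38% hold CAGAC on either strand, 0.182% hold the palindrome GTCTAGAC and 4.20% hold the AP-1 motif TGACTCA. None of the 3 printed stretches held GTCTAGAC or TGACTCA. These matches describe letters in short windows and say nothing of binding.

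The knocked-out gene was checked first. In nascent RNA, PPM1G stood at 242, 271 and 235 CPM (gene counts normalised by TMM and scaled to library size) in Ctrl replicates 1, 2 and 3 and at 98.9, 144 and 104 in KO. In steady-state RNA it stood at 326, 293 and 331 in Ctrl and at 97.8, 94.9 and 97.9 in KO. PPM1G RNA was thus lower in every library labelled KO, by 1.71 ± 0.06 on the log2 scale in steady-state RNA (adjusted p = 1.77e-10) and by 1.11 ± 0.17 in nascent RNA (adjusted p = 0.00717). Log2 changes are KO over Ctrl, ± a standard error derived from the F test, n = 3 libraries per group. Adjusted p-values come from edgeR's quasi-likelihood test with Benjamini-Hochberg adjustment over all genes tested.

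Nascent libraries held 79403238 to 101884166 gene counts and steady-state libraries 30962756 to 42479828. ERCC counts, as a share of gene counts, were 0.0230% (KO 3) to 0.0560% (KO 2) in nascent libraries. In steady-state libraries they were 0.475% to 0.581%. The part of this spread in the nascent calls lost with ERCC scaling was not tested. The detection floor of 3 counts corresponded to 0.0294 to 0.0378 CPM in nascent and 0.0706 to 0.0969 CPM in steady-state libraries, for counting error only. Nascent KO replicate 2 stood apart from its group: its chi-square per degree of freedom was 344 against KO 1 and 454 against KO 3, while KO 1 and KO 3 gave 35.5 and the Ctrl pairs 70.5 to 106. Steady-state KO 1 and KO 2 were closer to each other (1.88) than other steady-state pairs (12.7 to 22.9), yet differed beyond sampling noise and were kept as separate samples. The tables were not counted alike: of 9690 genes with at least 10 CPM in steady-state Ctrl, 561 were listed at 0 in all 6 nascent libraries, and 493 of these (87.9%) lie within the span of another gene, against 18 (0.197%) of the 9129 with a nascent count. Levels are therefore not compared between the tables beyond description. Summed levels of 8 epithelial markers were 2903 to 3308 CPM in Ctrl and 2731 to 2844 in KO steady-state RNA. In nascent RNA they were 1413 to 1739 and 1298 to 2210. Among them 2 were called higher and 3 lower in steady-state RNA, and 1 higher and 0 lower in nascent RNA. Summed levels of 4 blood cell markers were 0.269 to 0.468 CPM over the steady-state libraries. The summed level of 4 fibroblast markers was 4.28 to 6.27 CPM in Ctrl and 9.75 to 11.1 in KO steady-state RNA, and 5.00 to 5.94 and 9.69 to 13.7 in nascent RNA. Of these markers, COL1A1 was higher in KO in both assays (0.98 ± 0.12 in steady-state RNA, adjusted p = 1.60e-05, and 1.00 ± 0.18 in nascent RNA, adjusted p = 0.0127) and PDGFRB in nascent RNA (1.06 ± 0.21, adjusted p = 0.0182). LUM had 0 counts in all 12 libraries, and DCN had 0 in the steady-state libraries and 1 or 2 in each nascent library. Summed levels of 3 endothelial markers were 0.162 to 0.418 CPM in Ctrl and 0.497 to 0.682 in KO steady-state RNA, and in nascent RNA 5.85 to 6.55 and 12.6 to 12.8. In nascent RNA all 3 were called higher, and in steady-state RNA 0 were tested. The low-count filter kept 1 of them, CDH5, only through KO. The part of these marker differences in the results below was not tested.

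Of the 9 members, 5 passed the test in nascent RNA and 6 in steady-state RNA. SKIL was higher in the knockout in both assays, and SMAD3, SKI, PMEPA1 and TGFBI were lower in both. TGFBR2 was lower in steady-state RNA, while TGFB1, TGFBR1 and SMAD2 passed in neither. Among all genes, 19.6% of 21236 passed in nascent RNA (12.6% higher and 6.98% lower) and 48.4% of 20415 in steady-state RNA (21.5% higher and 26.8% lower). The members' counts are set beside these shares as a description, since much of the steady-state RNA at large passed the test. The members' median log2 change was -0.05 in nascent RNA, where that of all genes was 0.05, and -0.23 in steady-state RNA, where that of all genes was 0.00142. For all members that passed, the Ctrl and KO libraries did not overlap. TGFBI, 1 of these members, was kept by the low-count filter only through Ctrl, which favours this. Groups did not overlap for 38.4% of all genes in nascent RNA (KO above Ctrl for 20.6%, below for 17.8%) and for 56.1% in steady-state RNA (above for 26.1%, below for 29.9%). Without nascent KO 2, 53.8% of genes and 6 of the 9 members passed in nascent RNA, SMAD2 being the one gained. Fewer cells with a transcript and less of it per cell cannot be told apart in such bulk libraries.

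**Figure D1:**
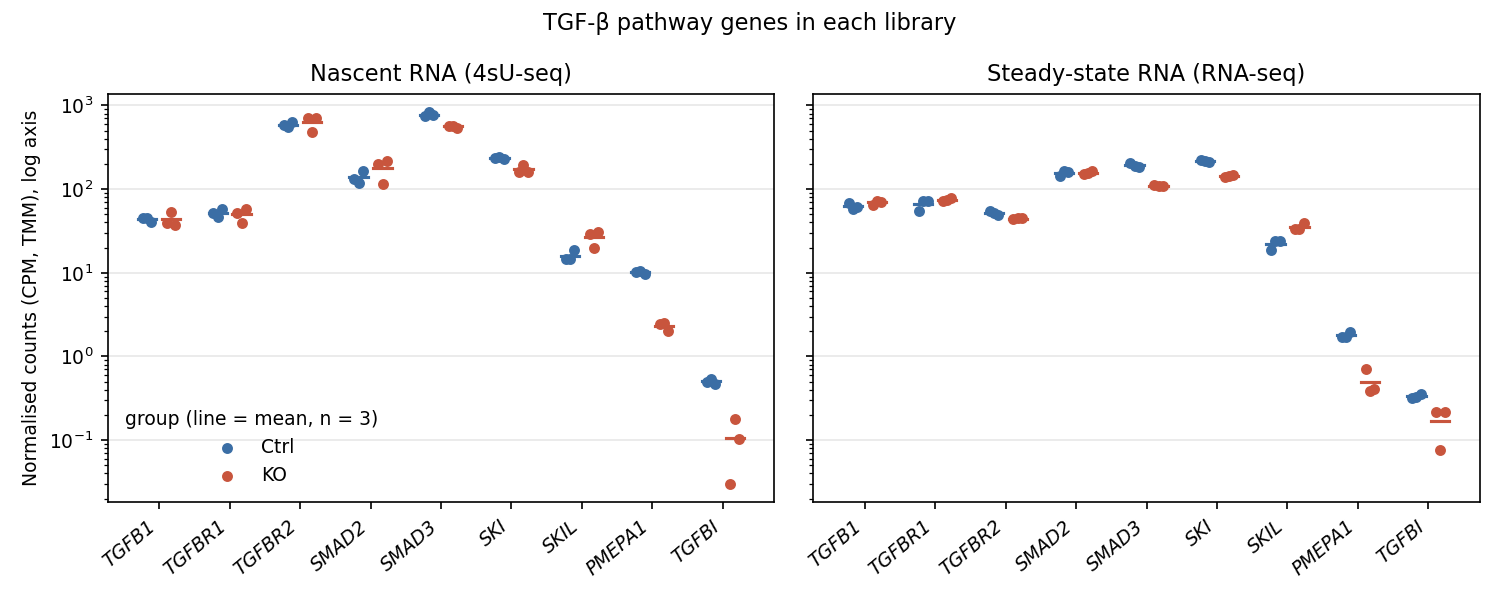
Normalised counts (CPM, log axis) of the 9 genes in each library, nascent RNA on the left and steady-state RNA on the right; points are libraries, lines are means of 3, blue is Ctrl and red is KO. PMEPA1 and TGFBI are the lowest genes in both panels, with all KO points below the Ctrl points.

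The ligand gene came first. TGFB1 (ENSG00000105329, chr19:41301587-41353911, minus strand) stood at 45.5, 45.0 and 40.6 CPM in nascent Ctrl and at 39.6, 53.7 and 37.2 in nascent KO. KO replicate 2 was above all Ctrl libraries and the other KO libraries were below them, and the change was -0.01 ± 0.17 (adjusted p = 0.986). Without KO 2 it was -0.26 (adjusted p = 0.0532). Its steady-state level was 68.3, 58.0 and 61.8 CPM in Ctrl and 65.1, 72.6 and 70.1 in KO. These groups overlapped, and the change of 0.14 ± 0.07 did not pass (adjusted p = 0.103). It passed under 3 of 17 alternatives: without steady-state Ctrl 1 (0.26, adjusted p = 0.00317), with library size alone (0.33, 0.00220) and with a mean of at least 50 counts (0.23, 0.00991). Of the TGFB1 span, 45.4% lies under genes of the opposite strand: HNRNPUL1, which shares 215 exon bases with it, CCDC97, CTC-435M10.3 and TMEM91. HNRNPUL1 fell by 0.62 ± 0.06 in steady-state RNA (adjusted p = 1.75e-06) and CCDC97 by 0.47 ± 0.08 (adjusted p = 1.97e-04). CCDC97, CTC-435M10.3 and TMEM91 share 0 exon bases with TGFB1. CCDC97 had 1098 to 2165 counts per steady-state library, but CCDC97 and TMEM91 had 0 in every nascent library. Since the strand setting is unknown, reads from the 215 exon bases shared with HNRNPUL1 cannot be assigned to either gene by position. How reads from the rest of the overlap were assigned in each assay was not tested.

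Of the receptor genes, TGFBR2 passed the test in steady-state RNA and TGFBR1 in neither assay. TGFBR1 (ENSG00000106799, chr9:99104038-99154192, plus strand) stood at 51.2, 46.2 and 57.3 CPM in nascent Ctrl and at 52.5, 39.5 and 57.5 in KO, which overlapped (-0.05 ± 0.17, adjusted p = 0.874; 0.0246 without KO 2). Steady-state TGFBR1 stood at 55.1, 71.8 and 71.4 CPM in Ctrl and at 71.8, 74.2 and 77.8 in KO. Ctrl 1 was the low library there, and the change of 0.18 ± 0.09 did not pass (adjusted p = 0.118). It passed under 7 of 17 alternatives: library size alone (0.36, adjusted p = 0.00311), ERCC scaling (0.27, 0.0346), the stricter filter at a mean of 50 counts (0.26, 0.0192), no filter (0.20, 0.0208), the replicate block (0.18, 0.0280), and without Ctrl 2 (0.26, 0.0298) or Ctrl 3 (0.26, 0.0236).

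TGFBR2 (ENSG00000163513, chr3:30606502-30694142, plus strand), the gene with the A run shown above, stood at 54.8, 52.4 and 49.1 CPM in steady-state Ctrl and at 43.4, 44.9 and 44.5 in KO. All KO libraries were below all Ctrl libraries, and TGFBR2 fell by 0.23 ± 0.06 (1.18-fold lower, adjusted p = 0.00395). This call was lost with ERCC scaling (-0.16, adjusted p = 0.294), with library size alone (-0.05, adjusted p = 0.518) and in a fit of all 12 libraries (adjusted p = 0.290). In nascent RNA it stood at 584, 548 and 633 CPM in Ctrl and at 712, 483 and 714 in KO. KO 1 and KO 3 were above all Ctrl libraries and KO 2 was below them, and the change was 0.11 ± 0.17 (adjusted p = 0.681). Without KO 2 it was 0.21 (adjusted p = 0.0775). TGFBR2 had the highest ratio of nascent to steady-state level among the members, at 11.3-fold in Ctrl, above 96.3% of 15856 genes. The ratio is a description only, since the tables were not counted alike and TGFBR2 spans 87.6 kb with 4.70 kb of exon. What sets it was not tested.

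The SMAD genes followed different courses. SMAD2 (ENSG00000175387, chr18:47808957-47931146, minus strand) stood at 144, 163 and 160 CPM in steady-state Ctrl and at 152, 155 and 165 in KO. The groups overlapped, with KO 3 above all Ctrl libraries and Ctrl 1 below all KO libraries, and the change was 0.01 ± 0.06 (adjusted p = 0.870). With library size alone it passed, at 0.20 (adjusted p = 0.00831). In nascent RNA it stood at 131, 119 and 166 CPM in Ctrl and at 199, 116 and 217 in KO. Again KO 2 was the low library, and the change of 0.36 ± 0.25 did not pass (adjusted p = 0.380). Without nascent KO 2, SMAD2 was higher by 0.52 (adjusted p = 0.0209), and without both nascent libraries numbered 2 by 0.45 (adjusted p = 0.0135).

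SMAD3 (ENSG00000166949, chr15:67063763-67195195, plus strand) fell in both assays. Its steady-state level was 205, 188 and 183 CPM in Ctrl and 113, 109 and 108 in KO, 1.75-fold lower (-0.81 ± 0.06, adjusted p = 1.86e-07). In nascent RNA it stood at 740, 832 and 758 CPM in Ctrl and at 574, 568 and 544 in KO, 1.38-fold lower (-0.47 ± 0.08, adjusted p = 0.0124). The 3 KO libraries lay close together in both assays, replicate 2 included, and far below Ctrl. The nascent call was lost without Ctrl 1 (adjusted p = 0.0548), Ctrl 2 (adjusted p = 0.0748) or KO 1 (adjusted p = 0.0540), and with ERCC scaling (-0.23, adjusted p = 0.860), and was kept without KO 2 (-0.55, adjusted p = 0.00221). The antisense gene RP11-798K3.2 shares 182 exon bases with SMAD3. Its changes, -0.33 ± 0.12 in nascent and 0.10 ± 0.14 in steady-state RNA, did not pass (unadjusted p = 0.0322 and adjusted p = 0.593).

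SKI and SKIL, paralogs that act as repressors of the same SMAD complexes, moved in opposite directions. SKI (ENSG00000157933, chr1:2228695-2310119, plus strand) stood at 222, 215 and 213 CPM in steady-state Ctrl and at 139, 143 and 146 in KO, 1.52-fold lower (-0.60 ± 0.05, adjusted p = 9.54e-07). In nascent RNA it stood at 233, 242 and 227 CPM in Ctrl and at 161, 196 and 159 in KO, 1.36-fold lower (-0.45 ± 0.11, adjusted p = 0.0388). Every KO library was below every Ctrl library in both assays, with nascent KO 2 nearest to Ctrl. The nascent call was lost with any 1 library left out other than KO 2 (adjusted p = 0.143, 0.157 and 0.0856 without Ctrl 1, 2 and 3, 0.150 without KO 1 and 0.105 without KO 3), and without KO 2 the change was -0.62 (adjusted p = 9.29e-04). It was also lost with ERCC scaling (-0.25, adjusted p = 0.815), with library size alone (-0.36, adjusted p = 0.101) and with the trend with gene span removed (-0.63, adjusted p = 0.0619).

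SKIL (ENSG00000136603, chr3:170357678-170396835, plus strand) was the one member that rose. Steady-state SKIL stood at 19.0, 23.8 and 24.2 CPM in Ctrl and at 33.0, 33.4 and 39.3 in KO, 1.58-fold higher (0.66 ± 0.09, adjusted p = 5.70e-05). Its nascent level was 14.6, 14.5 and 18.7 CPM in Ctrl and 29.4, 20.0 and 30.5 in KO, 1.67-fold higher (0.74 ± 0.20, adjusted p = 0.0488). All KO libraries were above all Ctrl libraries, but nascent KO 2 exceeded Ctrl 3 by little. This nascent call lies at the threshold and was lost without Ctrl 1, 2 or 3 (adjusted p = 0.185, 0.176 and 0.0915), without KO 1 or KO 3 (0.170 and 0.129), with no filter (0.0660), with DESeq2 size factors (0.0510) and with ERCC scaling (0.343). Without KO 2 it was 0.84 (adjusted p = 0.00212). The log2 change of SKIL stayed above 0 under all 16 nascent and 17 steady-state alternatives.

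Both response genes fell in both assays. PMEPA1 (ENSG00000124225, chr20:57648392-57711536, minus strand) stood at 10.2, 10.5 and 9.73 CPM in nascent Ctrl and at 2.48, 2.49 and 2.04 in KO, 4.34-fold lower (-2.12 ± 0.14, adjusted p = 5.03e-04). In steady-state RNA it stood at 1.73, 1.73 and 1.98 CPM in Ctrl and at 0.709, 0.385 and 0.404 in KO, 3.59-fold lower (-1.84 ± 0.23, adjusted p = 2.02e-05). Those steady-state values rest on 70, 58 and 61 counts in Ctrl and 26, 15 and 13 in KO. The KO libraries were tightly grouped in nascent RNA, replicate 2 included, and the call held under all 16 alternatives in each assay. PMEPA1 changed by -2.24 in nascent RNA when KO 2 was left out (adjusted p = 4.78e-05). NKILA, an antisense gene that shares 343 exon bases with PMEPA1, had 0 counts in all 6 steady-state libraries and 1 to 4 counts in each nascent library.

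TGFBI (ENSG00000120708, chr5:136028895-136063818, plus strand) had few counts, and stood at the detection floor of 3 counts in nascent KO 1 and steady-state KO 2. It had 49, 45 and 39 counts in nascent Ctrl (0.493, 0.544 and 0.474 CPM) and 3, 15 and 9 in KO (0.0302, 0.180 and 0.104 CPM), 4.90-fold lower (-2.29 ± 0.45, adjusted p = 0.0167). In steady-state RNA it had 13, 11 and 11 counts in Ctrl and 8, 3 and 7 in KO, 1.98-fold lower (-0.98 ± 0.38, adjusted p = 0.0470). KO libraries were below Ctrl libraries in both assays, but they spread widely. The low-count filter kept TGFBI through its Ctrl libraries, its KO libraries alone being too low in both assays. Such a selection favours a fall and groups that do not overlap. With no filter the steady-state call was lost (adjusted p = 0.0698) and the nascent call was kept (0.0115). The steady-state call held under 2 of 16 alternatives and was lost with any 1 library left out: adjusted p = 0.0969, 0.0875 and 0.113 without Ctrl 1, 2 and 3, and 0.0541, 0.262 and 0.0526 without KO 1, 2 and 3. The log2 change without steady-state KO 2 was -0.61. The nascent call was lost without Ctrl 1, 2 or 3 (adjusted p = 0.0725, 0.0669 and 0.0517), without KO 3 (0.0555) and with ERCC scaling (0.0645), and without KO 2 the change was -3.00 (adjusted p = 7.78e-04).

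**Figure D2:**
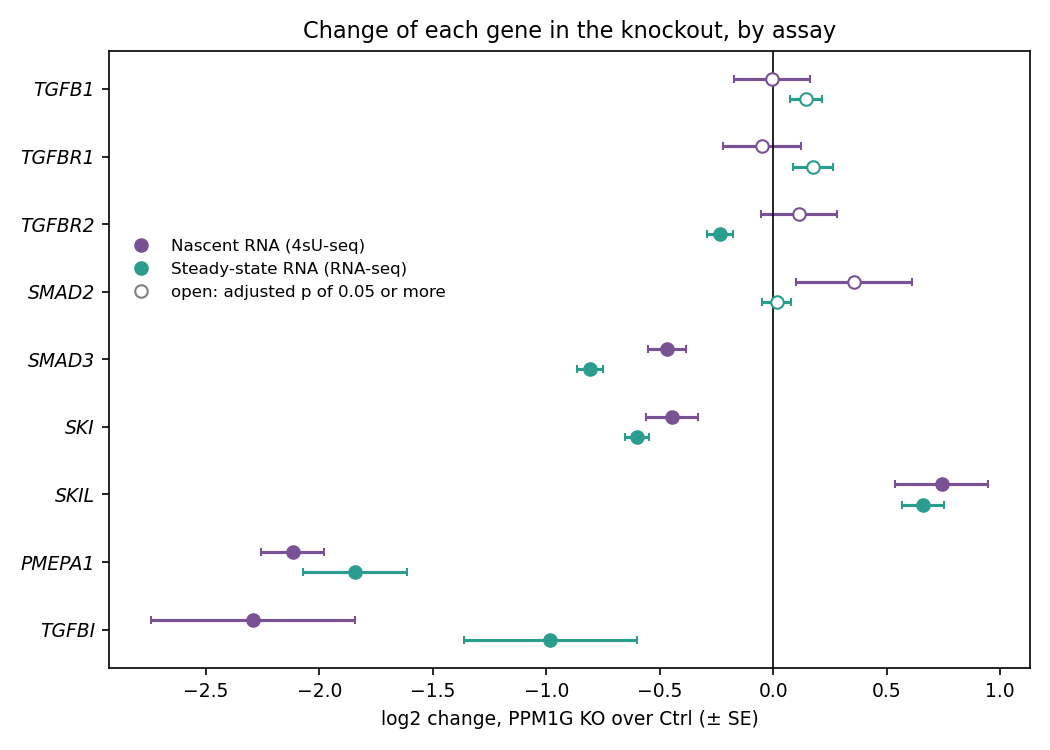
Log2 change in KO over Ctrl (horizontal axis, ± SE) of each gene in nascent RNA (purple) and steady-state RNA (green); open points have an adjusted p of 0.05 or more. PMEPA1 lies at -2.12 and -1.84, SMAD3 and SKI lie left of 0 in both assays, and SKIL lies right of 0 in both.

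The steady-state order of the members in Ctrl, per kb of annotated exon, ran from SKI at 35.6 ± 0.78 CPM per kb (SD, n = 3) through SMAD3 at 21.1 ± 1.27, TGFB1 at 19.4 ± 1.60, TGFBR2 at 11.1 ± 0.61, TGFBR1 at 9.66 ± 1.39, SMAD2 at 4.28 ± 0.29 and SKIL at 2.87 ± 0.38 to PMEPA1 at 0.322 ± 0.03 and TGFBI at 0.0429 ± 0.00242. SMAD3 and TGFB1 overlapped, as did TGFBR2 and TGFBR1, and the other neighbours did not. The SMAD2 value is divided by 36.4 kb of exon, the longest of the set. In KO, SMAD3 stood at 12.1 ± 0.27 CPM per kb, below TGFB1 at 21.4 ± 1.18. The receptor and SMAD genes thus stood well above the response genes PMEPA1 and TGFBI on this scale.

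Whether the knockout effect differed between nascent and steady-state RNA was tested as an interaction over all 12 libraries. With edgeR's test 0 of 9 members passed, where 2.51% of 15863 genes did. At an unadjusted p under 0.05 there was 1, SMAD3 (unadjusted p = 0.00737, adjusted p = 0.121), and the DESeq2 Wald test called 1, also SMAD3 (adjusted p = 0.0366). Of the 15863 genes, 2579 had an unadjusted p under 0.05 and 1060 were called by the DESeq2 Wald test. The difference for SMAD3, nascent minus steady-state log2 change, was 0.34 ± 0.10, its steady-state fall being the larger. For PMEPA1 the difference was -0.27 ± 0.27 (adjusted p = 0.692), for SKIL 0.10 ± 0.26 (0.905), for SKI 0.15 ± 0.10 (0.514), and for TGFBI -1.31 ± 0.64 (0.353). TGFBR2 gave 0.36 ± 0.21 (0.439) and SMAD2 0.36 ± 0.30 (0.627), while TGFB1 and TGFBR1 gave -0.15 ± 0.17 and -0.21 ± 0.23. Without nascent KO 2, however, 4 members passed: TGFBR2 (0.55, adjusted p = 0.00201), SMAD2 (0.61, adjusted p = 0.0112), SMAD3 (0.37, adjusted p = 0.0170) and TGFBI (-1.90, adjusted p = 0.0312). In that setting 4361 genes passed in all, against 398.

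**Figure D3:**
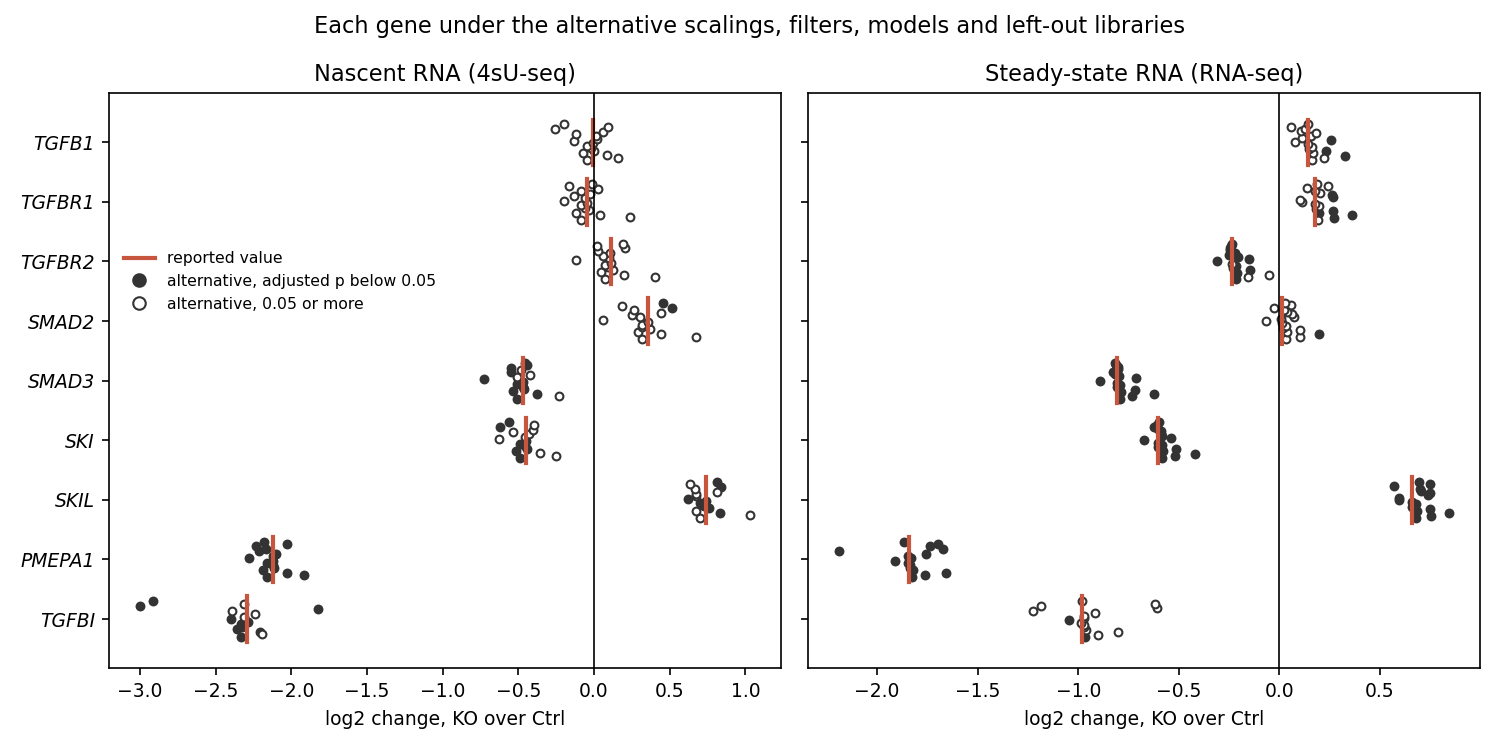
Log2 change in KO over Ctrl of each gene (horizontal axis) under the alternative scalings, filters, models and left-out libraries; red lines are the reported values, filled points have an adjusted p below 0.05 and open points do not. The points of SMAD3, SKI, PMEPA1 and TGFBI stay left of 0 and those of SKIL right of 0 in both panels, while those of TGFB1 and TGFBR1 straddle 0 in nascent RNA.

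The rest of the pathway was counted in lists, as a description beside the shares of all genes called higher and lower (12.6% and 6.98% in nascent RNA, 21.5% and 26.8% in steady-state RNA). Without nascent KO 2, when 53.8% of all genes passed, nascent calls were 3 higher and 6 lower for ligands, 5 and 1 for receptors, 2 and 1 for other SMADs, 5 and 3 for negative regulators, and 8 and 7 for targets. Of ligands and the genes that hold or free them, 14 were tested in nascent RNA (2 higher, 2 lower, median log2 change -0.07) and 12 in steady-state RNA (6 higher, 5 lower, median 0.0017). TGFB2, the second TGF-β ligand, stood at 3.60, 3.05 and 2.66 CPM in steady-state Ctrl and at 0.600, 0.539 and 0.435 in KO. It fell by 2.56 ± 0.20 there (adjusted p = 2.91e-07) and by 1.06 ± 0.23 in nascent RNA (adjusted p = 0.0250). THBS1, which can free TGF-β from its latent form, fell by 1.42 ± 0.06 in steady-state RNA (adjusted p = 7.64e-10) and by 1.19 ± 0.15 in nascent RNA (adjusted p = 0.00413). LTBP3, which binds latent TGF-β, fell by 0.65 ± 0.06 in steady-state RNA (adjusted p = 1.51e-06). ITGAV, a subunit of the integrins that free TGF-β, rose there from 44.0 ± 4.55 to 90.7 ± 3.79 CPM (SD, n = 3; adjusted p = 1.27e-07). In nascent RNA ITGB6, the partner of ITGAV in such an integrin, rose by 0.78 ± 0.18 (adjusted p = 0.0304). LRRC32, which displays latent TGF-β on the cell surface, rose there from 1 to 6 counts per library to 13 to 21 (adjusted p = 0.0246). The low-count filter kept LRRC32 only through KO, which favours a rise.

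Among 8 other receptors and coreceptors, 3 were higher and 0 lower in nascent RNA (median 0.46), and 3 were higher and 1 lower in steady-state RNA (median -0.10). TGFBR3, the coreceptor betaglycan, rose in both, from 83.1 ± 4.70 to 138 ± 14.7 CPM in nascent RNA (adjusted p = 0.00898) and from 17.6 ± 1.13 to 24.1 ± 0.80 in steady-state RNA (adjusted p = 6.21e-05). ACVRL1, a type I receptor, also rose in both (1.35 ± 0.19, adjusted p = 0.00558, and 1.17 ± 0.27, adjusted p = 0.00262). It lay under 2 CPM in every library, and in steady-state RNA the low-count filter kept it only through KO. ACVR1C, another type I receptor, rose in steady-state RNA (1.47 ± 0.24, adjusted p = 2.04e-04), where ACVR1 fell by 0.30 ± 0.06 (adjusted p = 7.79e-04). ACVR2B, a type II receptor for activins, rose in nascent RNA (0.53 ± 0.12, adjusted p = 0.0243) with -0.11 ± 0.05 in steady-state RNA (adjusted p = 0.112), and this difference passed the interaction test (0.64 ± 0.13, adjusted p = 0.0325).

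Of 11 other SMADs and their partners, edgeR's test called 0 in nascent RNA (2 at an unadjusted p under 0.05, and 1 called by DESeq2; median 0.09) and 8 in steady-state RNA (3 higher, 5 lower, median -0.01). SMAD4, the common partner, did not pass in either assay, at 0.39 ± 0.17 in nascent RNA (adjusted p = 0.150) and -0.01 ± 0.07 in steady-state RNA (adjusted p = 0.931). SMAD4 and SMAD9 were called higher and CREBBP lower in nascent RNA when KO 2 was left out. The inhibitory SMADs rose in steady-state RNA: SMAD7 from 6.09 ± 0.28 to 8.65 ± 0.41 CPM (0.51 ± 0.09, adjusted p = 2.43e-04) and SMAD6 by 0.68 ± 0.08 (adjusted p = 1.18e-05). SMAD9, a transducer of bone morphogenetic protein signals, rose by 0.87 ± 0.12 (adjusted p = 5.17e-05). CREBBP, an acetyltransferase that SMADs recruit, fell by 0.61 ± 0.07 in steady-state RNA (adjusted p = 7.60e-06), where its nascent change was -0.15 ± 0.08 (adjusted p = 0.248). The CREBBP difference passed the interaction test (0.46 ± 0.11, adjusted p = 0.0481).

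The list of negative regulators had 1 of 15 tested genes higher and 0 lower in nascent RNA (median 0.10), and 3 of 16 higher and 10 lower in steady-state RNA (median -0.26). LDLRAD4, a paralog of PMEPA1 that likewise restrains SMAD2 and SMAD3, moved opposite to PMEPA1. Its nascent level was 4.70, 3.83 and 4.83 CPM in Ctrl and 22.4, 16.8 and 22.2 in KO, 4.60-fold higher (2.20 ± 0.18, adjusted p = 9.96e-04). Steady-state LDLRAD4 stood at 0.517, 0.507 and 0.486 CPM in Ctrl and at 1.53, 1.21 and 1.34 in KO (1.42 ± 0.21, adjusted p = 7.47e-05). Steady-state USP11 fell by 0.85 ± 0.07 (adjusted p = 4.84e-07), DAB2 by 0.94 ± 0.09 (adjusted p = 1.82e-06), BAMBI by 0.62 ± 0.09 (adjusted p = 5.10e-05) and SMURF1 by 0.38 ± 0.05 (adjusted p = 5.55e-05). BAMBI is a decoy receptor and SMURF1 a ubiquitin ligase for pathway proteins. Not all of those that moved restrain the pathway: USP11, USP4 and USP15 remove ubiquitin from the type I receptor, DAB2 is an adaptor between receptor and SMADs, and RNF111 degrades inhibitors. USP4, USP15 and RNF111 are named for this role after their values were seen. PPM1A, a phosphatase of the same family as PPM1G that acts on SMAD2 and SMAD3, was chosen after its values were seen. It rose from 61.1 ± 3.41 to 76.3 ± 2.90 CPM in steady-state RNA (adjusted p = 6.63e-04), and its nascent change of 0.76 ± 0.28 did not pass (adjusted p = 0.104).

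Of the textbook targets of TGF-β, 29 were tested in each assay. In nascent RNA 5 were higher and 3 lower (median 0.16), and in steady-state RNA 9 were higher and 11 lower (median -0.04). VIM, a filament protein of mesenchymal cells, fell from 178, 160 and 158 counts in nascent Ctrl to 9, 6 and 9 in KO, 20.8-fold (-4.38 ± 0.18, adjusted p = 1.16e-04), and by 4.28 ± 0.28 in steady-state RNA (adjusted p = 5.76e-08). ADAM19, a membrane protease, fell by 1.35 ± 0.12 in nascent (adjusted p = 0.00132) and by 1.78 ± 0.06 in steady-state RNA (adjusted p = 2.10e-10). ZEB1, a repressor of epithelial genes, fell 3.76-fold in steady-state RNA (adjusted p = 7.05e-09), with -0.51 ± 0.53 in nascent RNA (adjusted p = 0.551). ID2, an inhibitor of helix-loop-helix factors that TGF-β holds down in epithelial cells, rose from 24.1 ± 2.56 to 96.9 ± 4.29 CPM in steady-state RNA (adjusted p = 2.86e-10) and by 2.37 ± 0.17 in nascent RNA (adjusted p = 7.33e-04). MMP2, a matrix protease, rose from 4 to 6 counts per nascent library to 15 to 26 (adjusted p = 0.00898). Its steady-state counts, 0 to 2 per library, were too few to test. The low-count filter kept nascent MMP2 only through KO, and VIM only through Ctrl in both assays. Such a selection favours the change seen.

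Targets that passed the interaction test included CYR61 and TSC22D1, each with a steady-state fall and a smaller nascent change. TSC22D1 is named for that result, after its values were seen, while CYR61 also met the rule for named genes. CYR61 (also called CCN1), a secreted matrix protein, fell by 1.24 ± 0.06 in steady-state RNA (adjusted p = 6.24e-09), with -0.22 ± 0.15 in nascent RNA (adjusted p = 0.339) and a difference of 1.02 ± 0.16 (adjusted p = 0.00974). TSC22D1 fell by 0.80 ± 0.06 in steady-state RNA (adjusted p = 1.11e-07), with a difference of 0.72 ± 0.10 (adjusted p = 0.00683).

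**Figure D4:**
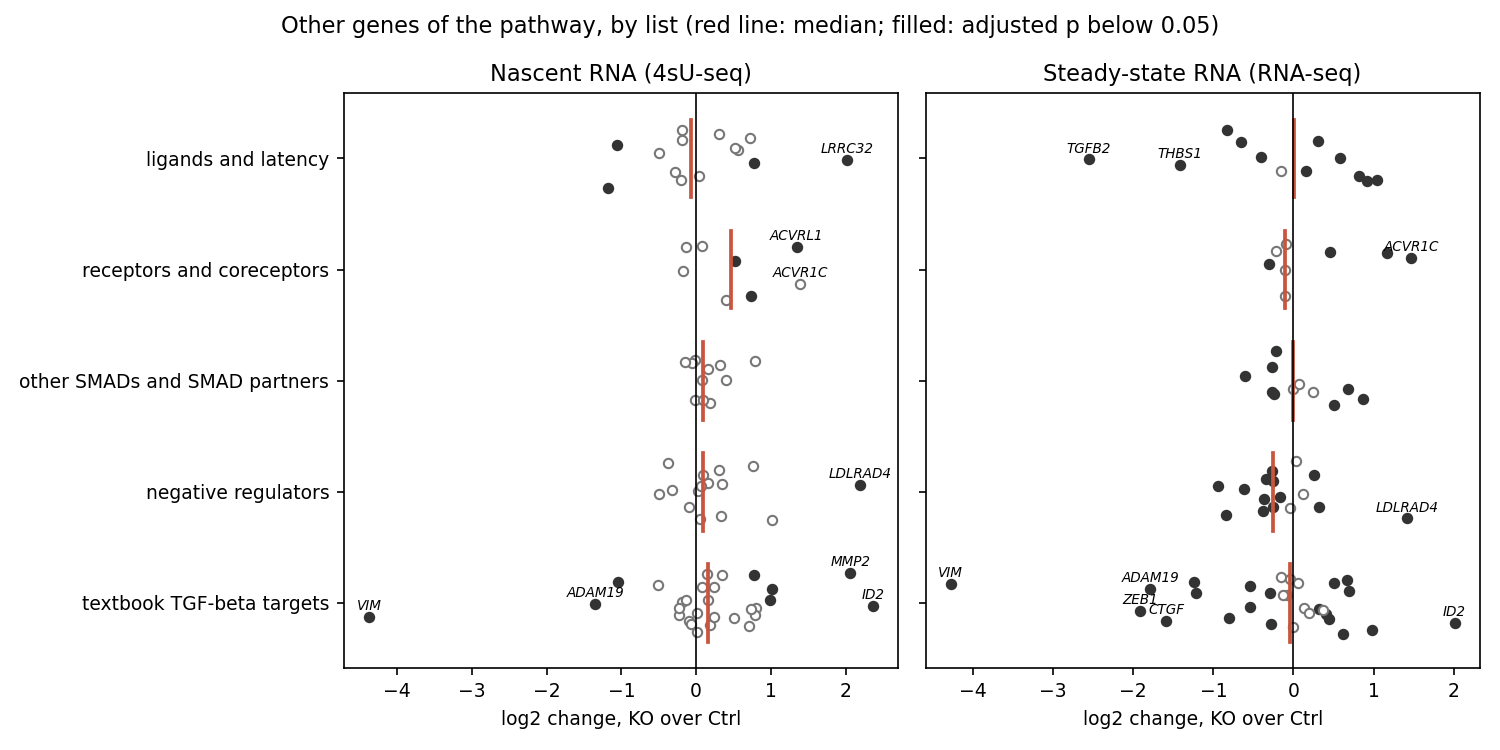
Log2 change in KO over Ctrl (horizontal axis) of the other pathway genes by list, nascent RNA on the left and steady-state RNA on the right; points are genes, filled where the adjusted p is below 0.05, red lines are list medians, and names mark genes beyond 1.3 on either side. Called genes lie on both sides of 0 in the ligand and target lists, with VIM at -4.38 and -4.28.

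Genes nearest in pattern to each member called in both assays were sought among 12528 protein-coding genes with counts in all 12 libraries, by the root mean square difference of log2 CPM taken relative to the Ctrl mean of the same assay. Nearest to SMAD3 were CDCP1 (0.062), PTPN9 (0.068) and KIAA1462 (0.070), and to SKI HMGXB3 (0.029), SAFB (0.036) and NF2 (0.038). SKIL had SENP7 (0.075), NUDT12 (0.076) and TTC39B (0.078). PMEPA1 had F3 (0.281), BMP4 (0.325) and COL13A1 (0.334), which fell by 1.77, 2.41 and 1.86 in nascent RNA. TGFBI, with few counts, had no near neighbour: APOBEC3A (0.686), MSX2 (0.742) and SOCS2 (0.774) were the closest.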

How the data were processed

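The authors deposited raw gene counts, 1 table per assay. The submitters' processing notes list HISAT2 2.1.0, featureCounts, SAMtools 1.3 and FastQC 0.11.2, with the build hg38. Annotation, counting feature and strand setting were not given in the sources used here. GENCODE 29 gave coordinates for 52890 gene IDs (94.3%).

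ERCC rows were left out of library sizes. Each assay was fitted alone with edgeR 4.0.16 (R 4.3.3) on genes kept by filterByExpr (minimum count 10), with TMM scaling, the two-sided quasi-likelihood F test, Benjamini-Hochberg adjustment and a threshold of 0.05. The interaction used the genes kept in both assays. Alternatives were other scalings (DESeq2 size factors, ERCC, library size alone, TMM over all 12 libraries), filters, a replicate block, the DESeq2 1.42.0 Wald test, 1 fit of all 12 libraries, a correction for gene span in every library, and left-out or merged libraries. The fits were tested on simulated data.

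The members, lists and tests were chosen with earlier results of these data known. Named genes are the members, PPM1G, SMAD4, SMAD7, up to 4 called genes of smallest p per list and assay (where none was called, the highest in CPM), genes over a member, and the 3 nearest in pattern. Genes named outside this rule, after their values were seen, are PPM1A, TSC22D1, USP4, USP15 and RNF111. Cell type markers, some of which also met the rule, were named after their values were seen. A gene that met these tests is not reported here.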

Additional observations from a re-analysis of the deposited data

How the results depend on the processing

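PMEPA1 kept its call under every alternative that could be fitted in both assays, and SMAD3, SKI and SKIL did in steady-state RNA. Nascent calls numbered 5 members and 4166 genes. They numbered 1 and 716 with ERCC scaling, 6 members and 10893 genes without both libraries numbered 2, and 1 to 6 and 1322 to 11673 with each library left out, the top of each range being without KO 2. A fit of all 12 libraries called 6608 genes in nascent and 4789 in steady-state RNA, against 9871. Interaction calls numbered 398 genes, against 7 with ERCC scaling, 190 with no filter, 1060 with the DESeq2 Wald test (1 member) and 86 to 4361 (0 to 4 members) with each library left out. The median log2 change of all nascent genes, 0.05, was 0.273 with ERCC scaling, 0.14 with library size alone and -0.109 with the span trend removed, and that of steady-state genes was 0.185 with library size alone. The share of called genes that were higher moved from 64.4% to 93.9%, 78.3% and 44.3% in these nascent settings. In steady-state RNA it moved from 44.6% to 61.6% (ERCC), 72.4% (library size) and 33.6% (span), and for the interaction from 50.5% to 71.4% (ERCC) and 29.7% (library size). Signs turned only for values that did not pass as reported: nascent TGFB1 (ERCC 0.16, library size 0.0863, left-out libraries -0.26 to 0.10), nascent TGFBR1 (ERCC 0.24, library size 0.0397, left-out libraries -0.17 to 0.0246), nascent TGFBR2 (span -0.12), steady-state SMAD2 (span -0.0673, left-out libraries -0.0286 to 0.0728), and the interactions of SKIL (library size -0.0115, left-out libraries -0.0262 to 0.289) and PMEPA1 (left-out libraries -0.43 to 0.0808). The cause was not tested. Same-numbered libraries did not all deviate together (correlations -0.156, 0.877 and 0.851 in nascent, -0.062, 0.212 and 0.310 in steady-state RNA), so the numbers were not taken as pairs. Nascent libraries with unlike numbers were also strongly correlated, such as Ctrl 3 with KO 1 (0.757) and Ctrl 2 with KO 3 (-0.856). With the replicate block 6907 nascent genes, 10384 steady-state genes and 656 interactions were called, with 5, 6 and 0 members. Steady-state TGFBI was lost (adjusted p = 0.0515) and TGFBR1 gained (0.0280), while nascent SKI (0.01595) and SKIL (0.0106) kept their calls. The filter at a mean of 50 counts left no value for TGFBI, or for PMEPA1 in steady-state RNA and the interaction. Depth limits TGFBI, whose steady-state values rest on 3 to 13 counts per library.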
